A study of Mus musculus with 8 samples.

Results

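H3K27ac, the acetylated form of histone H3 at lysine 27 that marks active promoters and enhancers, was mapped by ChIP-seq in Oli-neu cells, an embryonic oligodendrocyte precursor line from C57BL/6 mice. This account covers the loci of 10 genes that encode transcription factors of oligodendrocyte differentiation, *Myrf*, *Nkx2-2*, *Nkx6-1*, *Nkx6-2*, *Zfp488*, *Zfp24*, *Zfp536*, *St18*, *Zeb2* and *Yy1*, out of 21951 protein-coding genes in the annotation. They were taken by name, and every H3K27ac peak over the gene body or within 50 kb of it was collected, which gave 34 of 28924 peaks in proliferating cells and 35 of 27965 peaks in differentiating cells. Proliferating cells were kept in medium with N2 supplement, T3 (340 ng/ml), L-thyroxine (400 ng/ml), bFGF (10 ng/ml) and Pdgf-BB (1 ng/ml). Differentiating cells had the same T3 and L-thyroxine, no growth factors, and 1 μM of the Erb inhibitor PD174265. This lasted 1 day by the sample labels, whereas the culture methods of the study give a longer period. Each state has 1 library from a single line, so the spread between replicates is unknown and the states were not tested against each other. Of the series, 6 ATAC-seq samples (3 siCtrl, 3 siPadi2) were not analysed here.

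Oligodendrocyte precursors leave the cell cycle and switch on myelin genes under a network of transcription factors. Homeodomain proteins of the Nkx family help to specify and mature the lineage in the ventral neural tube. Zinc finger proteins relieve signals that hold precursors back, and *Myrf* then activates the myelin genes themselves.

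The deposited lists give each peak 3 unnamed values, read as fold enrichment, −log10 p and −log10 q, from the peak calling of its own library, but no read counts, which leaves the depth of each peak unknown, and values were ranked only within a list. The median fold enrichment was 3.33 (proliferating) and 3.13 (differentiating), and the weakest peaks had a q of 0.0995 and 0.0983. Peaks of the shortest width, 263 bp and 279 bp, made up 22.9% and 17.5% of the lists. Promoter peaks of the lineage markers *Olig1*, *Olig2*, *Sox10* and *Ptprz1* were present in both states. The precursor markers *Pdgfra* and *Cspg4* had none, and none of 6 markers of mature oligodendrocytes had one in either state. Of 5 astrocyte markers *Slc1a3* had one among the proliferating peaks, of 5 neuron markers *Syt1* had one in the differentiating list, and none of 5 microglia markers had one. By −log10 q the *Slc1a3* peak ranked above 1.56% of its list and the *Syt1* peak above 78.0%. Among all protein-coding genes 23.7% (proliferating) and 27.7% (differentiating) had a promoter peak, 33.8% in either state and 17.6% in both. The marker counts, of few genes, were not tested against these shares.

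Of the 10 factors, 3 had an H3K27ac peak at the promoter in proliferating cells and 5 in differentiating cells, where the promoter runs from 3000 bp before the transcription start site (TSS) of the gene to 100 bp past it. *Zfp24*, *Zeb2* and *Yy1* had one in both states, and *Myrf* and *St18* had one in the differentiating list alone, so that 5 factors had one in either state. Among all protein-coding genes the shares were 23.7% in proliferating cells, 27.7% in differentiating cells, 33.8% in either state and 17.6% in both. The factors' counts, of few genes, were not tested against this background. *Nkx2-2*, *Nkx6-1*, *Nkx6-2*, *Zfp488* and *Zfp536* had no promoter peak in either list. In differentiating cells the count fell to 3 with a narrower region, 1000 bp to either side, which no longer held the peaks of *Myrf* and *St18*, and to 1 when peaks below the median fold enrichment were left out. The shares of all genes under these settings are not given here.

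**Figure D1:**
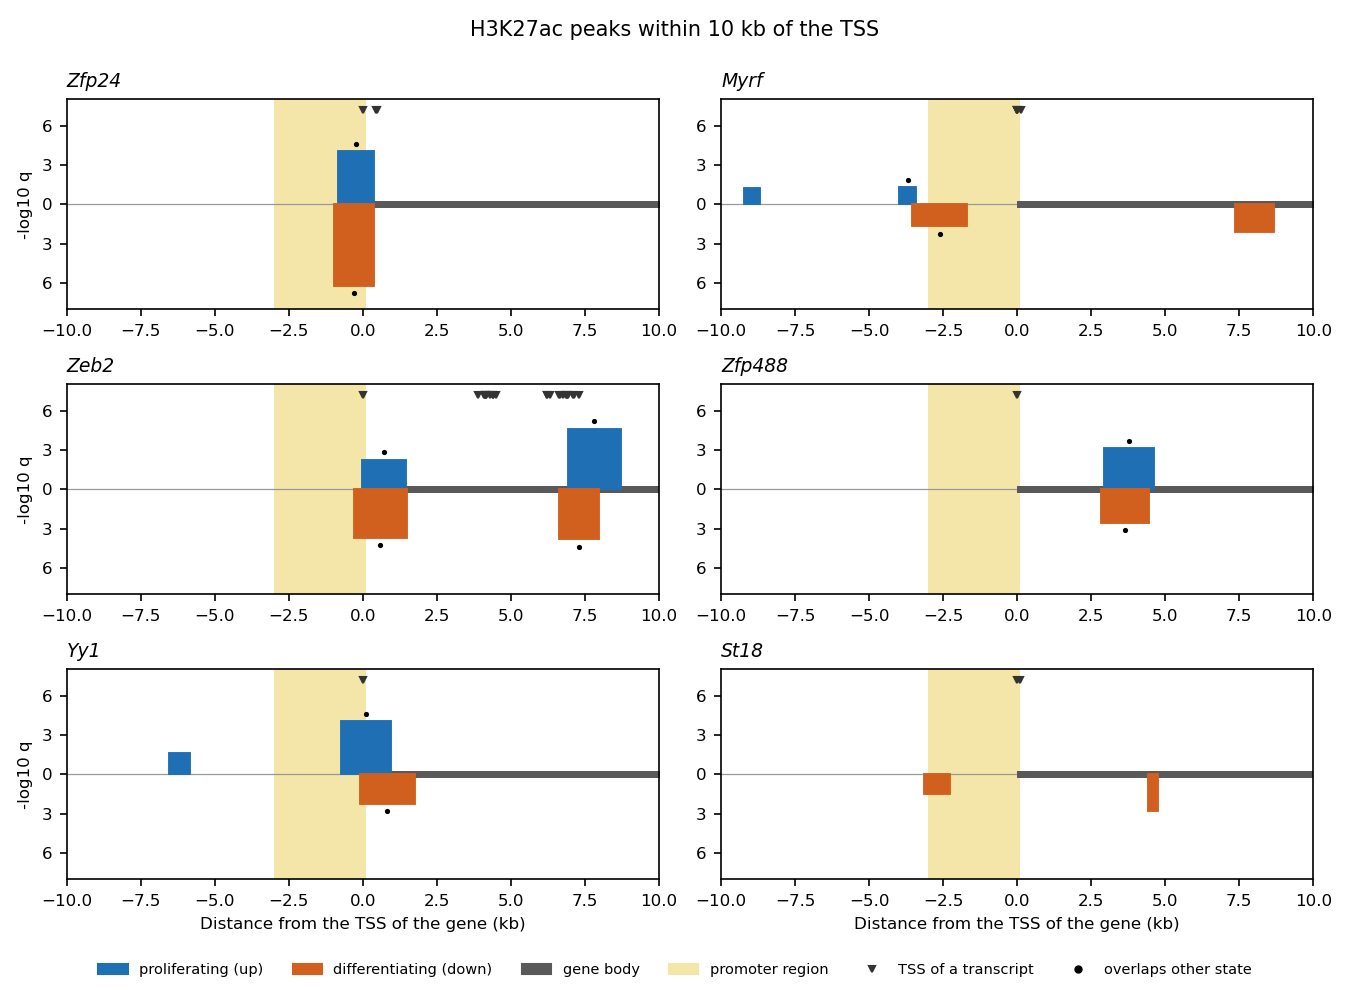
H3K27ac peaks within 10 kb of the TSS of 6 factors, with the distance from the TSS in kb on the x axis and −log10 q on the y axis, upwards for proliferating and downwards for differentiating cells. Bar width is peak width, yellow marks the promoter region, triangles the start of each transcript, and black points peaks that overlap a peak of the other state; the peaks of *Zfp24*, *Zeb2* and *Yy1* cover the TSS in both states, that of *Zfp488* lies inside the gene, and the promoter peaks of *Myrf* and *St18* in differentiating cells end upstream of the TSS, with a further peak of that state inside each gene.

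*Yy1* (ENSMUSG00000021264, chromosome 12, plus strand) encodes a zinc finger factor that represses inhibitors of differentiation. Its promoter peaks covered the TSS at 108792973, with the proliferating peak at 108792232 to 108793916 and the differentiating peak at 108792878 to 108794727. Their fold enrichment was 3.92 and 2.94, and they ranked above 92.1% and 63.9% of their own lists by −log10 q. The stretch shared by both peaks, 1039 bp long, had a GC content of 75.2% and 142 CpG dinucleotides. It covers the first exon, and 200 bases of its coding part (GRCm38, chr12:108793413-108793612, plus strand, from 440 bp downstream of the TSS) are shown for this CpG-dense sequence, with capitals for E-boxes (CANNTG), of which it has none.
Yy1: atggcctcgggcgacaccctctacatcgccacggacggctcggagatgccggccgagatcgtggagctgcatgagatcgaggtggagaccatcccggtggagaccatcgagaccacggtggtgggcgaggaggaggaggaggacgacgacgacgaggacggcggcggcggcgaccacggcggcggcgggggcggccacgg
A pair of further regions near *Yy1* had peaks in both states. One lay 26427 bp and 26700 bp upstream of the TSS, where 93 bp were shared, and the other lay over *Slc25a29* and the promoter region of *Slc25a47* with fold enrichments of 3.14 and 3.39. The proliferating list had 2 more peaks in the window, 5827 bp upstream of the TSS and over *Slc25a47*, that had no counterpart.

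*Zeb2* (ENSMUSG00000026872, chromosome 2, minus strand), a zinc finger and homeodomain gene that counteracts BMP and Smad signals, had 2 regions near its 5′ end with peaks in both states. The first covered the TSS at 45117395, from 45115944 to 45117409 in proliferating and from 45115892 to 45117698 in differentiating cells. By fold enrichment, 2.59 and 2.77, these peaks stood above 2.82% and 11.4% of their lists, and by −log10 q above 65.4% and 88.0%, with widths of 1466 bp and 1807 bp. The second region began 6932 bp and 6642 bp downstream of the TSS, where other transcripts begin. It covered the start of 4 of the 29 annotated transcripts in proliferating cells and of 9 in differentiating cells. By −log10 q it ranked above 94.7% and 88.8% of its lists, but by fold enrichment, 3.07 and 2.78, above 20.6% and 12.1%. A stretch of the first region that holds no annotated untranslated base is given, on the strand of the gene (GRCm38, chr2:45116577-45116776, 619 bp downstream of the TSS), because this region carries the promoter peak in both states. Capitals mark its E-box.
Zeb2: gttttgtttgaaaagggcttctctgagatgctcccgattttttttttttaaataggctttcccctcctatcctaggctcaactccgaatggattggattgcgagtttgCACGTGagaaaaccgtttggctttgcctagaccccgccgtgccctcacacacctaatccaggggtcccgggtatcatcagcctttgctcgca
The window of *Zeb2* held 5 peaks in proliferating and 8 in differentiating cells, and the remaining 3 and 6 had no counterpart. Of these, 2 in proliferating and 2 in differentiating cells lay in introns, and 1 of differentiating cells lay on an exon. The strongest of the proliferating list by fold enrichment (4.20) lay past the 3′ end of the gene, 136393 bp from the TSS.

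*Myrf* (ENSMUSG00000036098, chromosome 19, minus strand) encodes the membrane-bound factor that activates myelin genes. Its TSS at 10240748 was not covered in either state. In differentiating cells a peak of 1867 bp, from 10242430 to 10244296, began 1682 bp upstream of the TSS with a fold enrichment of 3.05 and a −log10 q of 1.68, above 37.7% of its list. In proliferating cells the nearest peak, from 10244157 to 10244741, lay 3409 bp upstream, just past the limit of the promoter region, with a fold enrichment of 2.88 and a −log10 q of 1.32, above 4.38% of its list. These peaks share 140 bp, so the difference in the promoter count at *Myrf* is one of position and extent between overlapping peaks. With a region from 6000 bp upstream, *Myrf* had a promoter peak in both states. Of the shared bases, 100 are shown on the strand of the gene (GRCm38, chr19:10244177-10244276) as the part upstream of *Myrf* that both lists mark, and capitals mark E-boxes, which oligodendrocyte factors such as Olig2 bind.
Myrf: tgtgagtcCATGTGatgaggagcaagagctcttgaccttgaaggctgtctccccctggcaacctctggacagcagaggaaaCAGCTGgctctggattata
Inside *Myrf*, differentiating cells had 2 peaks, 7342 bp and 17298 bp downstream of the TSS with −log10 q of 2.09 and 2.30, and proliferating cells had none. The second of them has the shortest width of its list, 279 bp. The strongest peaks of the window lay on neighbouring genes past the 3′ end of *Myrf*, over *Fads1* (above 98.4% and 93.8% of the lists by −log10 q) and at the promoters of *Fen1* and *Tmem258* (90.1% and 83.3%).

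*Zfp488* (ENSMUSG00000044519, chromosome 14, minus strand), an oligodendrocyte zinc finger gene whose product acts with Olig2, had 1 peak per state, and both marked the same place in its intron. The proliferating peak, at 33974132 to 33975823, had a fold enrichment of 3.50, and the differentiating peak, at 33974309 to 33975936, one of 3.03. They began 2941 bp and 2828 bp downstream of the TSS, shared 1515 bp and ranked above 84.9% and 72.9% of their lists. This was the longest stretch shared by the states among the 16 shared regions of the 10 loci. Its middle 200 bases are given on the strand of the gene (GRCm38, chr14:33974966-33975165) and hold no E-box, although the whole shared stretch has 11.
Zfp488: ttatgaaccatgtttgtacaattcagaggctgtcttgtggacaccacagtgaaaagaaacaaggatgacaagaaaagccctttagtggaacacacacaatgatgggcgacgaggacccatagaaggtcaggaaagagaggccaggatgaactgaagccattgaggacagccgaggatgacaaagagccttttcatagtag

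*Nkx2-2* (ENSMUSG00000027434, chromosome 2, minus strand), a homeodomain gene that promotes differentiation of precursors, had a pair of intronic peaks in both states and no peak at a start site. The annotated gene begins at 147194243 with a non-coding transcript, and its main coding transcript runs from 147186404 to 147183083. The stronger intronic peak of differentiating cells, from 147181083 to 147181904, had a fold enrichment of 3.19 and ranked above 85.3% of its list. Its proliferating counterpart, from 147181072 to 147181749, had a fold enrichment of 2.77 and ranked above 3.69% of its list, so the same place stood near the bottom of one list and in the upper part of the other. Both lay in an intron of another coding transcript, 1179 bp (differentiating) and 1334 bp (proliferating) beyond the end of the main one. At the second place the proliferating peak of 386 bp lay 4332 bp and the differentiating peak of 374 bp lay 4654 bp beyond that end, and they shared 64 bp. The first of these places is shown by 200 bases (GRCm38, chr2:147181316-147181515, strand of the gene), with its E-boxes in capitals.
Nkx2-2: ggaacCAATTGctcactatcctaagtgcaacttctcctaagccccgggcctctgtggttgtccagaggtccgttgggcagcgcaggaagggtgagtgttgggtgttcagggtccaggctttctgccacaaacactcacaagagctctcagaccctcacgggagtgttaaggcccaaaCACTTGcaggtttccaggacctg
The remaining peak of *Nkx2-2*, in proliferating cells, lay 39372 bp upstream of the annotated start, over the antisense gene *Nkx2-2os*, and had no counterpart.

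The Nkx6 genes, which pattern the ventral neural tube (*Nkx6-1*) and are expressed in myelinating oligodendrocytes (*Nkx6-2*), had no peak on the gene itself in either state. The window of *Nkx6-1* (ENSMUSG00000035187, chromosome 5) held 1 peak in proliferating cells, 23766 bp upstream of the TSS with a fold enrichment of 3.09, above 8.49% of its list by −log10 q. The differentiating list held none, and its nearest peak lay 404621 bp upstream. At *Nkx6-2* (ENSMUSG00000041309, chromosome 7) both states had a peak in the downstream neighbour *Inpp5a* and a peak in the upstream neighbour *Cfap46*. The peaks in *Inpp5a* ranked above 38.5% and 73.8% of their lists, and those in *Cfap46* above 25.6% and 84.0%. RefSeq promoter sequences of 300 bp (GRCm38.p6), found for 7 of the 10 factors, held 40 CpG dinucleotides at *Nkx6-1*, 32 at *Nkx6-2*, 22 at *Zfp536*, 17 at *Nkx2-2* and 16 at *Zfp488*, where neither list has a peak. Where both lists have one, the sequences held 42 at *Yy1* and 9 and 19 at a pair of starts of *Zeb2*, and the remaining 2 starts of *Zeb2*, with 8 each, had no peak.

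*Zfp24* (ENSMUSG00000051469, chromosome 18, minus strand), a zinc finger gene needed for myelination, had the promoter peaks with the highest −log10 q of the 10 factors in both lists. This counts the TSS of the gene, and the proliferating *Zeb2* peak over starts of other transcripts had a higher −log10 q, 4.63. The proliferating peak, at 24020431 to 24021649, had a fold enrichment of 3.62 and a −log10 q of 4.08, above 92.3% of its list. The differentiating peak, at 24020425 to 24021787, had a fold enrichment of 4.27 and a −log10 q of 6.23, above 96.8% of its list. Both covered the TSS at 24020810 and came within 111 bp of the start site of each of its 3 transcripts. A second peak of differentiating cells, at 33481 bp downstream of the TSS with a fold enrichment of 4.44, lay in the promoter region of the neighbouring *Zfp35* and had no counterpart in the proliferating list.

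*Zfp536* and *St18* are the longest genes of the group, at 301507 bp and 373710 bp, and lay far apart in their number of peaks. *Zfp536* (ENSMUSG00000043456, chromosome 7), a zinc finger gene expressed in oligodendrocytes, had 1 intronic peak per state, 286647 bp and 147689 bp downstream of its TSS, and these did not overlap. They ranked above 26.4% and 44.9% of their lists, and the first has the shortest width of its list, 263 bp. *St18* (ENSMUSG00000033740, chromosome 1), a zinc finger gene of the Myt1 family, had 11 peaks in each state. Of these 8 in proliferating and 7 in differentiating cells lay in introns, and 2 in each state overlapped a peak of the other. The strongest of the proliferating list had a fold enrichment of 4.15 and lay 178261 bp downstream of the TSS, with a width of 263 bp, as 5 of the 11 had. In differentiating cells the promoter peak of *St18*, from 6484085 to 6484946, ended 2285 bp upstream of the TSS at 6487231 with a fold enrichment of 2.95, above 25.5% of its list, and an intronic peak 4428 bp downstream ranked above 77.1%. Intronic peaks of *St18* include stretches that are 98.9% (proliferating) and 98.4% (differentiating) repeat-masked bases. When the start of every transcript was counted, *St18* gained a promoter peak among the proliferating peaks too, 2427 bp upstream of one transcript near the 3′ end of the gene.

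**Figure D2:**
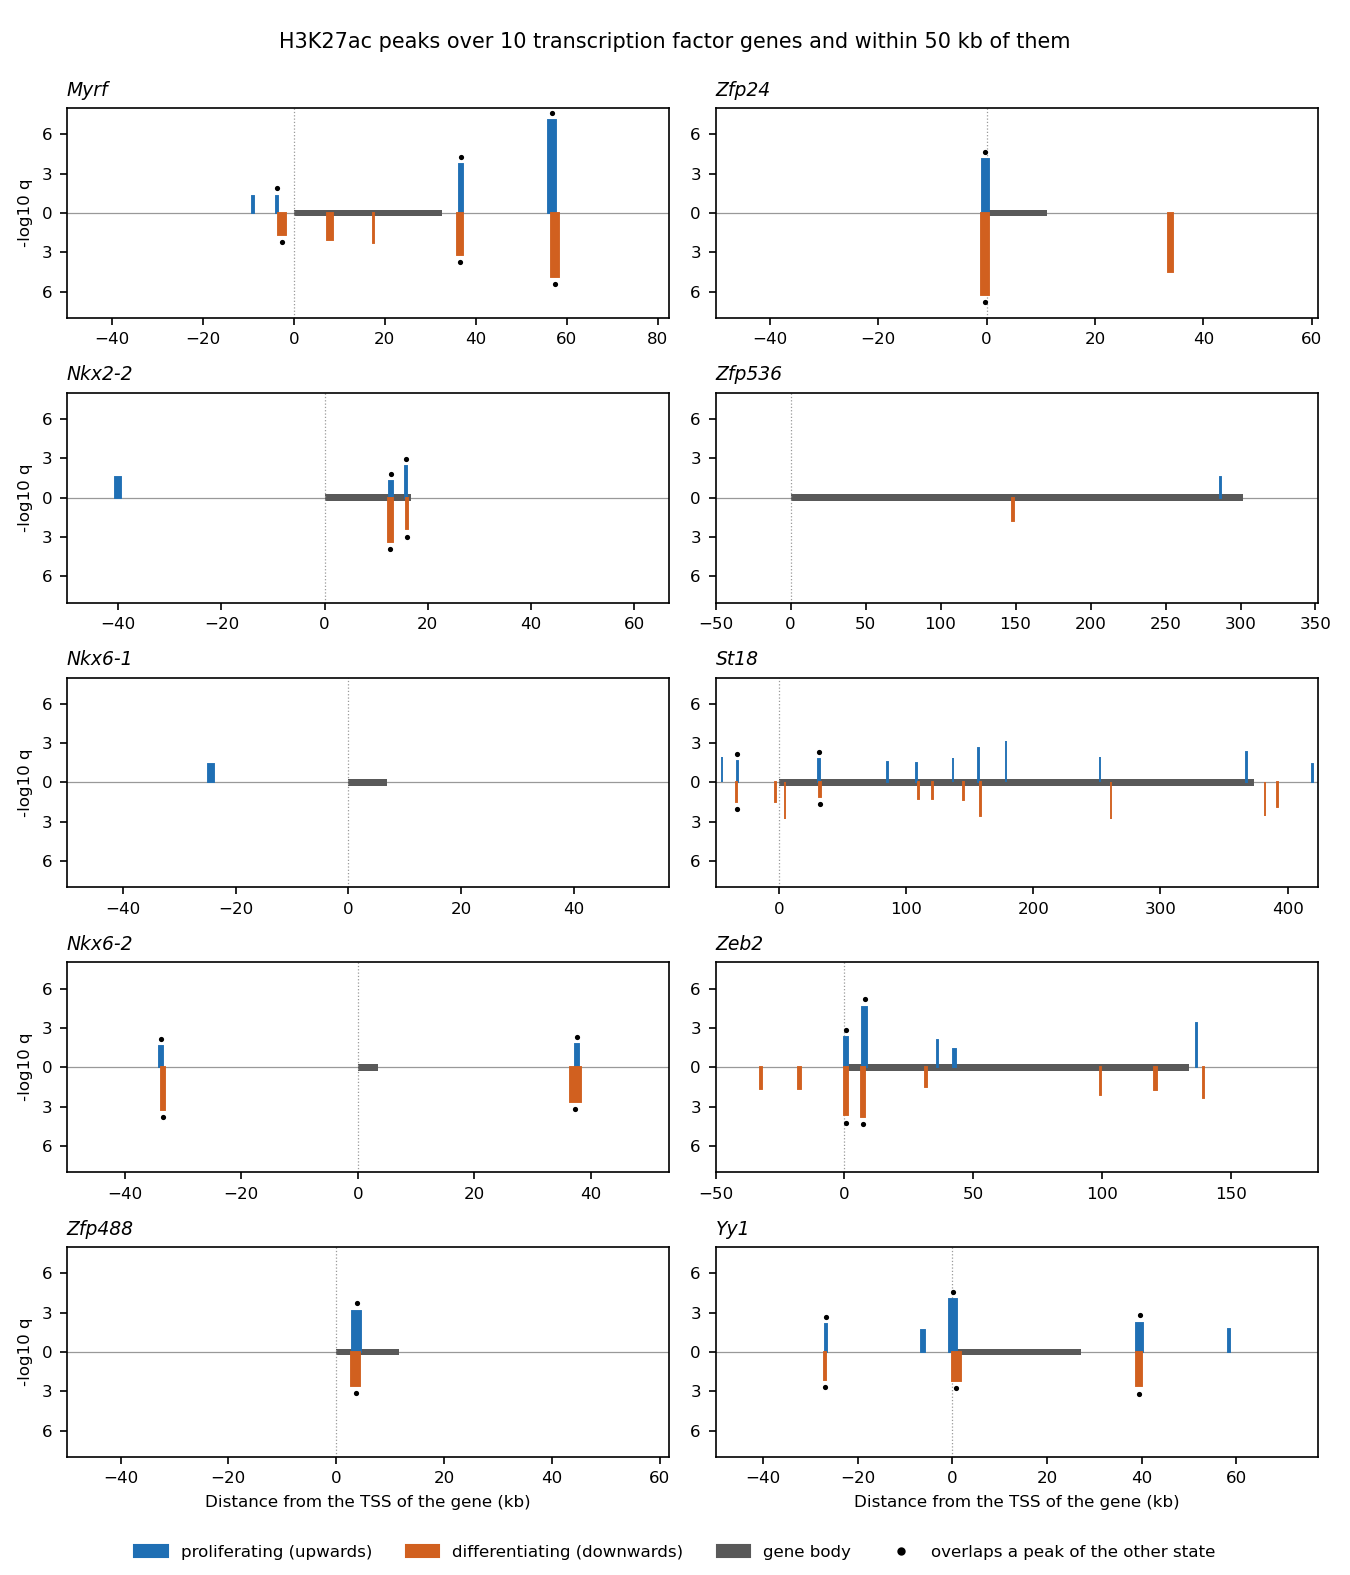
Every H3K27ac peak over the 10 factors and within 50 kb of them, with the distance from the TSS in kb on the x axis, in the direction of transcription, and −log10 q on the y axis, upwards for proliferating and downwards for differentiating cells. Grey bars are gene bodies and black points mark peaks that overlap a peak of the other state; *St18* has 11 peaks per state of which 2 are marked, and *Zfp488* a single marked peak per state.

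Peaks in the windows of the 10 factors were counted per 100 kb, since the windows, with 50 kb to each side, run from 103422 bp at *Nkx6-2* to 473710 bp at *St18*. In total the windows held 1.77 peaks per 100 kb in proliferating and 1.82 in differentiating cells. These values pool all bases of the windows, so long genes weigh more. Over all protein-coding genes the mean of the densities per gene was 1.83 and 1.84, and the median 1.34 and 1.38, which weigh each gene alike. In proliferating cells all 10 factors had a peak in the window and in differentiating cells 9 had one, beside 75.2% and 74.2% of all protein-coding genes. These shares of genes were not matched for window length. The density was highest at *Yy1* in proliferating cells, with 3.93 per 100 kb, above 95.3% of the genes of chromosome 12. It was highest at *Myrf* in differentiating cells, with 3.77 per 100 kb, above 70.7% of the genes of chromosome 19. *St18* had 2.32 per 100 kb in both states, above 68.2% and 67.3% of all genes but above 38.1% and 39.9% of those of chromosome 1. That chromosome is dense in peaks on average, with 1.92 and 1.87 per 100 kb. *Zfp488*, on the sparse chromosome 14 with 0.411 and 0.390 per 100 kb, had 0.895 per 100 kb, above 38.6% and 38.8% of all genes and above 60.3% and 61.8% of those of its chromosome. The part of chromosome-wide density in these values was not tested. Of the limit of 50 kb, the farthest peak inside lay 45188 bp from its gene (*St18*, proliferating) and the nearest outside 51546 bp (*Yy1*, differentiating).

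**Figure D3:**
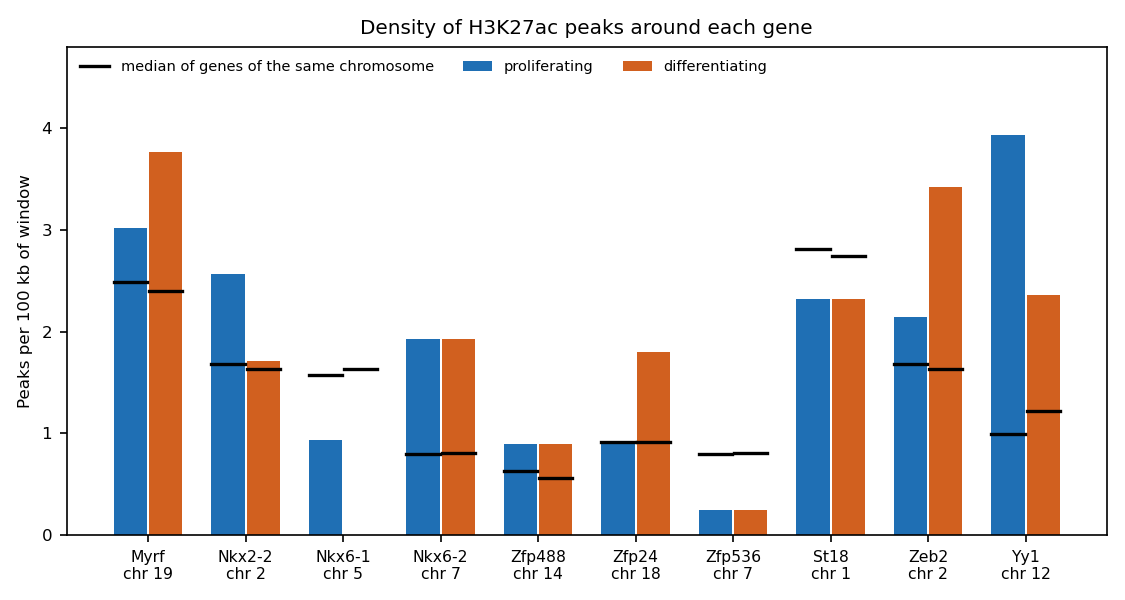
Peaks per 100 kb of window (gene body with 50 kb on both sides) for the 10 factors in proliferating and differentiating cells, with black lines for the median of the protein-coding genes of the same chromosome. *Yy1* stands at 3.93 and 2.36 over lines at 0.991 and 1.22, while *St18*, at 2.32 in both states, lies under its lines at 2.81 and 2.74.

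Both lists marked the same place at 16 spots of these windows. That is 47.1% of the 34 peaks of proliferating cells (95% exact Clopper-Pearson interval 29.8% to 64.9%, which covers counting error only) and 45.7% of the 35 peaks of differentiating cells (28.8% to 63.4%). Over the whole lists the shares were 29.2% and 30.1%, and the difference was not tested. The intervals take peaks as independent, whereas 11 peaks of each state lie at *St18* alone, so they do not serve as a test. Where each peak had to cover 0.5 of the other, the shares fell to 26.5% and 25.7%, beside 16.7% and 17.3% of the whole lists. At 8 of the 10 factors the window held at least 1 peak shared by any overlap, beside 52.4% of all protein-coding genes, not matched for window length. *Nkx6-1* and *Zfp536* had none, and those of *Nkx6-2* lay in its neighbours *Inpp5a* and *Cfap46*. In the promoter region or gene body of the factors, 8 of 18 peaks (proliferating) and 9 of 22 (differentiating) were shared. Shared peaks of the windows ranked higher, with a median above 65.1% and 73.8% of the lists by −log10 q, than those without a counterpart, at 34.4% and 47.4%. Their median GC content was 54.4% and 53.5%, against 40.4% and 42.6%. The whole lists split alike, with medians of 76.0% and 77.3% for shared peaks and 40.8% and 39.3% for the rest, so this is not particular to the 10 loci. No shared peak of the windows had the shortest width of its list, and 6 of the 18 and 4 of the 19 others did. In the whole lists 530 of 8452 and 322 of 8430 shared peaks had it, and 6096 of 20472 and 4576 of 19535 of the rest. At −log10 q of 5 or more stood 1 peak per state, over *Fads1* in proliferating cells and at the promoter of *Zfp24* in differentiating cells. These are 1 of 34 and 1 of 35 peaks, beside 4.35% and 5.73% of the whole lists.

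**Figure D4:**
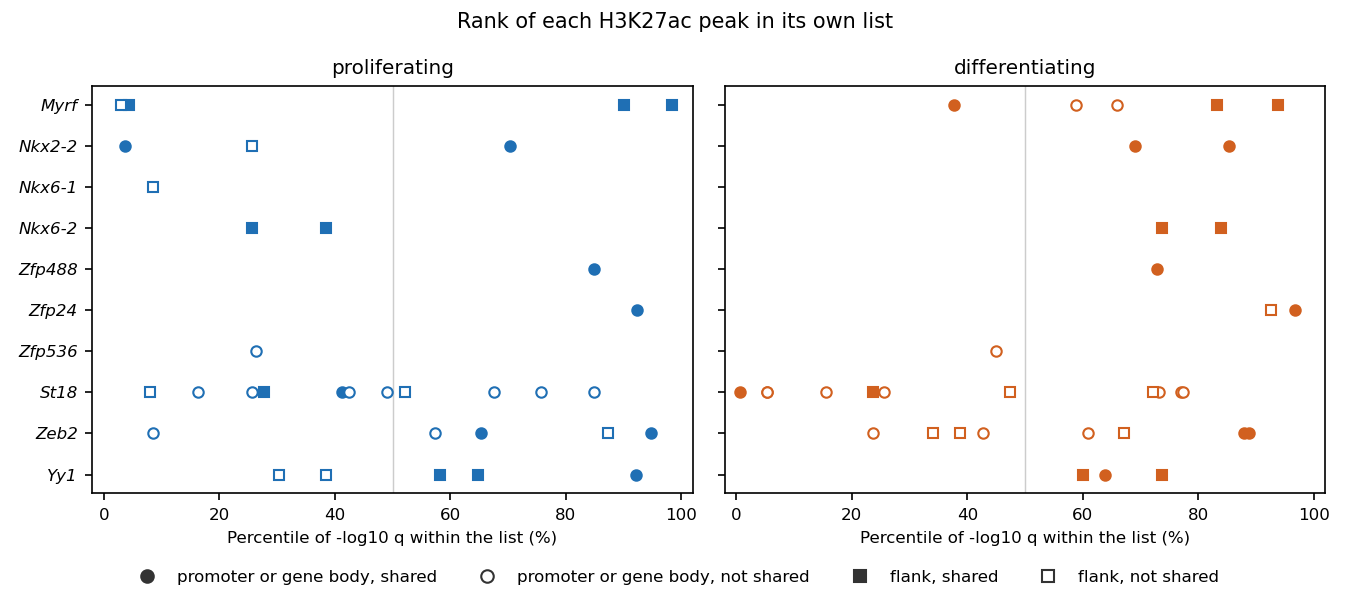
Percentile of −log10 q within the own list for each of the 34 and 35 peaks, by factor, with circles for peaks in the promoter region or gene body, squares for peaks in the flanks, and filled symbols for peaks that overlap a peak of the other state. Filled circles of *Zfp24* lie at 92.3% and 96.8% and those of *Zfp488* at 84.9% and 72.9%, whereas *St18* runs from 7.90% to 84.9% and from 0.704% to 77.3%.

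Other genes of the same network were taken as lists, to be read beside the 23.7% (proliferating), 27.7% (differentiating) and 17.6% (both) of all protein-coding genes with a promoter peak. Of 19 activators and cofactors, 11 had a promoter peak in proliferating cells, 13 in differentiating cells and 9 in both. The activators with a peak in both states were *Olig1*, *Olig2*, *Sox10*, *Klf6*, *Klf9*, *Hdac1*, *Hdac2*, *Smarca4* and *Chd8*. Activators with one in the differentiating list alone included *Sox8*, *Myt1*, a relative of *St18*, and *Nfia*, and *Tcf7l2* and *Chd7* had one in the proliferating list alone. Of 9 genes listed as inhibitors 5 had a promoter peak in each state and 3 in both, namely *Hes1*, *Hes5* and *Sox6*. *Sox5* and *Sox9* had one in the proliferating list alone and *Id2* and *Zfp281* in the differentiating list alone. The study describes *Sox9* as needed to specify the lineage and lowered when precursors differentiate, so the label is a loose one. Of 10 myelin genes *Ugt8a*, an enzyme of galactolipid synthesis, was the 1 gene with a promoter peak, in both states, with fold enrichments of 4.26 and 4.31. The counts of the lists and of the 10 factors were not tested against each other or against all genes.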

How the data were processed

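H3K27ac ChIP-seq peak lists of Oli-neu cells were analysed, 1 library per state. Per the submitters' notes and the study's methods, the authors aligned reads with Bowtie2 2.1.0, kept unique alignments, removed PCR duplicates, called broad peaks with MACS2 2.0.10 and filtered out blacklisted regions. The deposited lists, called per library and unpooled, join 3 unnamed values per peak, which were taken, following the column order of MACS2 output, for the fold enrichment ratio, the −log10 p-value and the −log10 q-value. The second exceeds the third at every peak. They hold no counts, so depth per peak is unknown. The study's methods give more uniquely mapped reads for the differentiating than for the proliferating library, and peak counts were not adjusted for this. The methods state a q cutoff of 0.05, whereas the weakest deposited peaks have q near 0.1. The control library behind the enrichment is not given in the sources used here.

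Peaks were joined to GENCODE M21 genes (GRCm38) with Python 3.11.15, numpy 2.4.6, pysam 0.24.0 and samtools 1.23.1, with intervals from scipy 1.17.1 and plots from matplotlib 3.10.9. A peak was shared where it overlapped 1 bp or more of a peak of the other list. Percentiles of peaks are within a list, and by −log10 q where no other measure is named. The overlap code was tested on simulated data. No test between states was possible. All members are named, with every peak counted. The members and gene lists were chosen with earlier results of these data known. Genes of the lists are named by whether they had a promoter peak, except for an item that is not reported here. Alternatives were other promoter regions, flanks, cutoffs and overlaps.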

Additional observations from a re-analysis of the deposited data

How the results depend on the processing

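No paired analysis was possible because each state has 1 library. Of 48 values recomputed under other settings, 27 stayed close to the reported ones and 21 moved. Close meant a count within a factor of 1.5 of the reported one, or a share inside the reported interval. With peaks of −log10 q of at least 5, promoter peaks were present at 0 factors in proliferating cells, 1 in differentiating cells, 1 in either and 0 in both. The windows then held 1 peak per state, and 0% of them had a counterpart, since the cutoff was applied to both lists. In the uncut lists both peaks overlapped a peak of the other state, with −log10 q of 4.85 (differentiating, at *Fads1*) and 4.08 (proliferating, at *Zfp24*). With 1000 bp on both sides, the counts for differentiating cells and for either state were 3. Among peaks not below their list's median fold enrichment, 1 factor had a promoter peak in differentiating cells, 2 in either state and 1 in both. The windows held 14 and 18 such peaks, of which 35.7% and 27.8% had a counterpart among the peaks kept in the other list. A flank of 100 kb gave 52 peaks in proliferating cells, and the gene body alone 18 and 20. With that flank 34.6% (proliferating) and 39.1% (differentiating) of the peaks had a counterpart, and with a flank of 25 kb 46.2% and 40.0%. Where each peak had to cover 0.5 of the other, 26.5% and 25.7% had a counterpart, beside 16.7% and 17.3% of the whole lists. For the other settings, counterpart shares over all peaks and promoter shares of all genes are not given here. The values under those settings thus have no background beside them. The alternatives differ by construction in the peaks or bases they admit. Without replicates or read counts, whether a peak found in 1 list alone marks a difference between the states was not tested.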

Other observations

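Matches to 7 sequence motifs were counted in the central 300 bp of the peaks, on both strands. The E-box CANNTG, bound by basic helix-loop-helix factors such as Olig2, was present in 26 of the 34 proliferating peaks near the 10 factors (76.5%), and in 76.8% of all peaks of that list. In differentiating cells it was present in 29 of 35 (82.9%), and in 75.6% of all. The Sox motif AACAAT was found in 20.6% and 14.3% of the peaks near the factors, and in 14.3% and 13.7% of the whole lists. The Zeb E-box CAGGTG, which is also a match to the general E-box, was found in 14.7% and 28.6%, beside 18.6% and 18.2% of the lists, and the Nkx2-2 motif CACTTNA in 11.8% and 2.86% (1 of 35 peaks), beside 14.3% and 13.6%. The Myrf motif CTGGNAC was found in 20.6% and 14.3%, beside 18.7% and 18.4%. The Yy1 motif CCATNTT was found in 20.6% and 17.1%, beside 20.1% and 19.5%, and the Myt1 family motif AAGTTT in 20.6% and 17.1%, beside 16.2% and 15.8%. None of these differences was tested, and each rests on few peaks. A match describes letters and is no binding site.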
